A study of Mus musculus with 6 samples.

Results

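Among the mRNA probes of a mouse circular RNA (circRNA) array are those of 4 immune genes, H2-Q7, Gsdmd, Mzb1 and Il2. They are 4 of 50 mRNA probes, and were taken by probe identity (A_51_P172231 for Gsdmd, A_51_P452153 for Mzb1, A_51_P114222 for Il2) or, for H2-Q7 (A_51_P262079), through the RefSeq accession that the array design gives for the probe. Each mRNA probe is printed as 10 spots. The 6 arrays came from hearts of BALB/c mice, 3 labelled control and 3 labelled chronic intermittent hypoxia (CIH), which models obstructive sleep apnea. Chamber O2 in CIH was held at 6% over 60 s and at 21% over the next 60 s, so that a cycle lasted 2 min and ran 30 times per h, on 8 h of the day and over 8 weeks. The labels name no exposure for the control mice, and no age, sex or subline of either group. On each array the RNA bound by an antibody against N6-methyladenosine (m6A), the immunoprecipitate or IP, carried Cy5, and the unbound supernatant RNA carried Cy3. Both fractions had been treated with RNase R, an exonuclease that removes linear RNA, so an mRNA probe reads what remained after that step.

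H2-Q7 belongs to the nonclassical class I genes of the major histocompatibility complex and encodes the Qa-2 antigen, a surface protein that presents peptides to lymphocytes and natural killer cells. Class I genes are induced by interferons, and H2-Q7 lies among near-identical H2-Q copies, so a probe for it may read its relatives. BALB/c sublines are known to differ in whether they carry Qa-2. Gsdmd encodes gasdermin D, which inflammatory caspases cleave to free a pore-forming fragment that opens the plasma membrane in pyroptosis. Mzb1 encodes a chaperone of the endoplasmic reticulum in B and plasma cells that assists antibody assembly. Il2 encodes interleukin-2, a growth factor that activated T cells secrete. m6A is a methyl mark on adenosine that reader proteins bind and that affects the splicing, stability and translation of RNA.

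The array carries few other genes of these pathways. H2-Q7 was the single gene with a probe among 26 listed class I pathway genes, Gsdmd the single one of 20 pyroptosis genes, Mzb1 of 14 B and plasma cell genes and Il2 of 14 genes of T cells and the interleukin-2 axis. H2-Q7 was also the single H2-Q probe, although the RefSeq table used for names holds 10 H2-Q genes and places H2-Q7 next to H2-Q6. Of the listed heart and blood cell markers, Hspb7, a small heat shock protein gene of cardiomyocytes, had a probe, and its 60 spots were well above background in both channels. No endothelial, fibroblast, macrophage, T cell or red cell marker of the lists had a probe. A change in the number of immune cells therefore cannot be told apart from a change in RNA per cell.

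Array control 1 stood apart in its IP over supernatant ratios. Over 3096 circRNAs measured in both channels of all arrays, its log2 ratios had an SD of 0.35, where each other array had 0.68 or more, and it correlated with the others at r = 0.32 to 0.46 across circRNAs, which are not independent replicates. Changes in the IP, the supernatant and the ratio are also given without it. The 3 control arrays and CIH 1 shared slide 1, and CIH 2 and CIH 3 were on slide 2. Replicates are numbered samples that the labels do not tie to separate animals, so the spread that the tests use may be technical.

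The H2-Q7 probe was bright enough to be read everywhere, and its unscaled intensity did not overlap between the groups in either fraction. All 60 spots were well above background in both channels, where an array's scanner software marks a spot whose signal clears its local background by a set margin. The IP intensity, on the linear scale of the deposited processed signals, was 886 on control 1, 465 on control 2 and 249.9 on control 3, and 2174 on CIH 1, 1847 on CIH 2 and 1223 on CIH 3. The supernatant intensity was 479 on control 1, 895 on control 2 and 627 on control 3, and 1355 on CIH 1, 2985 on CIH 2 and 2282 on CIH 3. In both fractions every CIH array was higher than every control array. These intensities are not scaled for the brightness of the array, and the shares of probes without overlap given below refer to scaled signals. Set against the array's negative probes, as given below, the supernatant groups overlapped. The spots of a single array agreed closely, with a coefficient of variation of 3.69% to 8.71% in the IP and 4.07% to 9.06% in the supernatant.

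To set arrays of different brightness side by side, each signal was placed on the log2 scale relative to the 75th percentile of the array's circRNA probes. On that scale the H2-Q7 IP level was 0.84, 0.27 and -0.12 on control 1, 2 and 3 and 2.84, 2.24 and 1.53 on CIH 1, 2 and 3. CIH 1 had the highest value and control 3 the lowest, and the gap between the groups lay between control 1 and CIH 3. The control mean was 0.33 ± 0.49 and the CIH mean 2.21 ± 0.65 (SD, n = 3), a rise of 3.67-fold (log2 change 1.88 with SE 0.32, 95% interval 1.19 to 2.56; limma adjusted p = 0.0192 over all 6282 circRNA and mRNA probes tested). It was the single one of the 4 genes to pass in the IP signal. Over all probes 1.42% passed as higher in CIH and 0% as lower. The groups did not overlap for H2-Q7, as for 7.98% of probes on the higher and 8.8% on the lower side.

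The call rested on the moderated variance and on single CIH arrays. H2-Q7 did not pass without moderation (limma adjusted p = 0.518 on the ordinary variance), without CIH 1 (0.107, log2 change 1.56) or without CIH 2 (0.171, log2 change 1.86). In each of these settings 0 probes passed over the whole array. Without control 1 H2-Q7 passed with a log2 change of 2.13 (limma adjusted p = 0.0269), where 36 of 6287 probes passed over the whole array. With slide as a block the log2 change was 2.51, and it was 2.51 on slide 1 alone. These are the same estimate, since slide 2 holds no control array. It sets CIH 1, the array with the highest IP value, alone against the controls, so no p is given. With normexp background correction the log2 change was 0.93 and passed, where 37 of 6282 probes passed over the whole array. That setting has an offset, median signals and no dye normalization, and which of these made the change smaller was not tested. In the main fit the median probe fell by 0.13, so H2-Q7 rose by 2.00 relative to it. With median scaling 33 probes passed as higher and 4 as lower over the whole array, in place of 89 and 0.

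In the supernatant the H2-Q7 level was -0.06, 1.13 and 1.203 on control 1, 2 and 3 and 2.04, 2.85 and 2.38 on CIH 1, 2 and 3. The lowest value was that of control 1, and the groups again did not overlap, as for 5.19% of 5432 probes on the higher side. The group means were 0.76 ± 0.71 and 2.42 ± 0.41 (SD, n = 3), a log2 change of 1.67 with SE 0.38 and a 95% interval of 0.79 to 2.54. This did not pass over all probes (limma adjusted p = 0.685, unadjusted p = 0.00228), where 0% passed in either direction and 3.55% had an unadjusted p under 0.05 on the higher side. Without control 1 the log2 change was 1.26 (limma adjusted p = 0.556), and with normexp 0.49 (0.972). With slide as a block it was 1.29, an estimate that rests on CIH 1 as the single CIH array. None of these passed.

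The sum of both fractions, a rough measure of how much of the RNA was on the array at all, varied least within the groups. The H2-Q7 total level was 0.46, 0.74 and 0.66 on control 1, 2 and 3 and 2.47, 2.58 and 2.01 on CIH 1, 2 and 3. The means were 0.62 ± 0.14 and 2.35 ± 0.30 (SD, n = 3), a rise of 3.32-fold (log2 change 1.73 with SE 0.21, 95% interval 1.27 to 2.20). Its unadjusted p of 9.28e-06 ranked 1 of 6924 probes, yet the limma adjusted p of 0.0643 did not pass, and 0% of probes did in either direction. On the higher side 7.96% had an unadjusted p under 0.05 and 8.51% did not overlap. In the IP signal 7.26% had an unadjusted p under 0.05 on that side. Without control 1 the log2 change was 1.65 (limma adjusted p = 0.106). H2-Q7 passed in the total signal with normexp (limma adjusted p = 6.11e-05), where the log2 change was smaller at 0.71. It also passed with median scaling (0.00240), no filter on dim probes (0.000695) and only probes read on all 6 arrays (0.0496). Without control 2, where 135 of 6925 probes passed over the whole array, H2-Q7 passed too (0.0160). With slide as a block, where the estimate rests on CIH 1 as the single CIH array, its log2 change was 1.85 and did not pass.

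**Figure D1:**
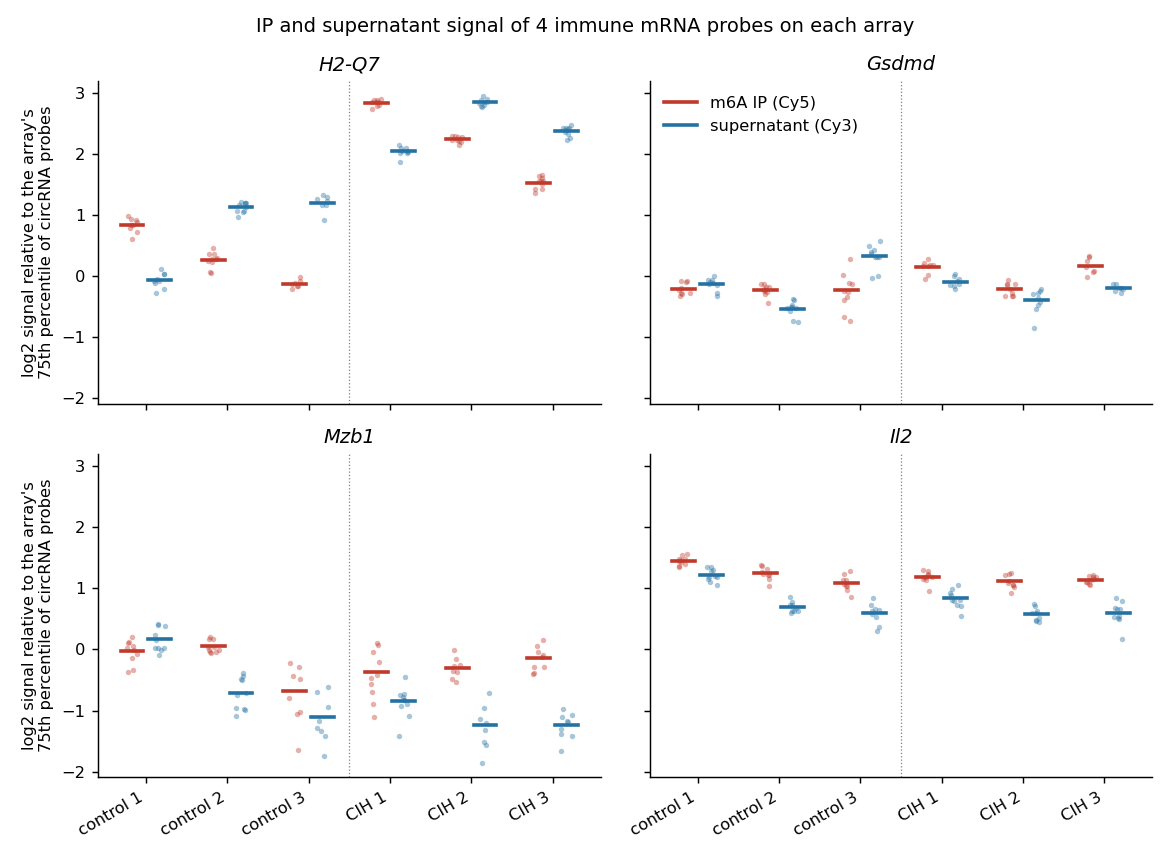
Log2 signal of each probe relative to the array's 75th percentile of circRNA probes (vertical axis) on the 6 arrays (horizontal axis), with IP in red and supernatant in blue. Points are the spots kept of 10 and bars are the probe's value on that array. The H2-Q7 IP level runs from -0.12 to 0.84 in control and from 1.53 to 2.84 in CIH, while the other 3 probes overlap between the groups.

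The IP over supernatant ratio asks whether more of a transcript sat in the m6A fraction, and for H2-Q7 it changed sign between arrays of the same group. The log2 ratio, centred on the array's circRNA median, was 0.99 on control 1, -0.89 on control 2 and -1.29 on control 3, and 0.85 on CIH 1, -0.72 on CIH 2 and -0.87 on CIH 3. Control 1 and CIH 1 were thus the arrays with more IP than supernatant signal, and the other 4 had less. The group means were -0.40 ± 1.22 and -0.25 ± 0.95 (SD, n = 3), which differed by less than the spread within groups (log2 change 0.15, 95% interval -1.56 to 1.86; limma adjusted p = 0.999). The interval is wide in both directions, so a sizeable difference in the ratio was not detectable with these arrays. The change was 0.84 without control 1, 1.25 with slide as a block and -0.40 without CIH 1, none of which passed.

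Control 1 had atypical ratios over the whole array, but CIH 1 did not. The circRNA ratios of CIH 1 correlated with those of the 4 arrays other than control 1 at r = 0.81 to 0.89. The lower of control 1 and CIH 1 exceeded the highest other array by 1.57 for H2-Q7. Of the 3096 circRNAs, 711 had these arrays on top, and 1 had a gap at least as large as that of H2-Q7. No other mRNA probe had one. These counts were made after the ratios of H2-Q7 were seen.

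Gsdmd was read on every array but did not differ between the groups beyond their spread. Its 60 spots were well above background in both channels. The IP level was -0.20, -0.23 and -0.23 on control 1, 2 and 3 and 0.16, -0.21 and 0.18 on CIH 1, 2 and 3. CIH 2 lay within the range of the controls. The means were -0.22 ± 0.01 and 0.04 ± 0.22 (SD, n = 3; log2 change 0.26, 95% interval -0.20 to 0.72, limma adjusted p = 0.680), and the change was 0.27 without control 1. The supernatant level was -0.13, -0.53 and 0.33 on control 1, 2 and 3, a range that held the 3 CIH values of -0.09, -0.39 and -0.19 (log2 change -0.11, 95% interval -0.88 to 0.65; -0.13 without control 1). The log2 ratio was 0.01, 0.27 and -0.52 in control and 0.30, 0.08 and 0.34 in CIH. Control 3, the lowest, had the widest scatter between its IP spots, with a coefficient of variation of 20.9% against 6.13% to 9.07% elsewhere. The Gsdmd ratio change of 0.32 (95% interval -0.29 to 0.93, limma adjusted p = 0.999) was 0.10 without control 3 and 0.36 without control 1. For the gasdermin D transcript these arrays leave room for a total signal between 0.45 lower and 0.60 higher in CIH on the log2 scale.

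Mzb1 was near the limit of what these arrays read, above all in the supernatant. In the IP, 10, 10 and 6 of 10 spots were well above background on control 1, 2 and 3 and 7, 10 and 10 on CIH 1, 2 and 3. In the supernatant the counts were 10, 10 and 0 on the controls and 0, 4 and 7 on the CIH arrays. The supernatant therefore met the criterion for testing, most spots well above background on at least 3 arrays, with no array to spare. The spots of an array varied by 7.09% to 30.0% in the IP and 13.2% to 26.6% in the supernatant.

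The Mzb1 IP level was -0.03, 0.05 and -0.67 on control 1, 2 and 3 and -0.37, -0.30 and -0.15 on CIH 1, 2 and 3, so the CIH values lay inside the control range (log2 change -0.05, 95% interval -0.59 to 0.49; limma adjusted p = 0.937). Without control 1 that change was 0.041, of the opposite sign. The supernatant level was 0.17, -0.71 and -1.11 in control and -0.85, -1.24 and -1.24 in CIH. Control 1 had the highest supernatant value of Mzb1. The log2 change of -0.56 (95% interval -1.59 to 0.46; limma adjusted p = 0.685) was -0.21 without control 1 (0.949). The log2 ratio was -0.12, 0.72 and 0.47 in control and 0.54, 0.84 and 1.06 in CIH. On control 3, CIH 1 and CIH 2 most supernatant spots were not well above background, so the ratios there rest on a channel that was not read reliably and their direction is uncertain. The Mzb1 ratio change, which carries this limit, was 0.45 (95% interval -0.22 to 1.13; limma adjusted p = 0.999) and 0.22 without control 1, and the groups overlapped.

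Il2 gave a steady signal that did not follow the exposure. Its 60 spots were well above background in both channels, with spot variation of 3.82% to 9.04% in the IP. The IP level was 1.45, 1.25 and 1.09 on control 1, 2 and 3 and 1.19, 1.11 and 1.15 on CIH 1, 2 and 3, and the CIH values lay within the control range. The means were 1.26 ± 0.18 and 1.15 ± 0.04 (SD, n = 3; log2 change -0.12, 95% interval -0.51 to 0.28, limma adjusted p = 0.819; -0.021 without control 1). The supernatant level was 1.22, 0.70 and 0.60 in control and 0.83, 0.58 and 0.60 in CIH (log2 change -0.17, 95% interval -0.77 to 0.44, limma adjusted p = 0.779; 0.026 without control 1). The log2 ratio was above 0 on each array, from 0.31 on control 1 to 0.53 on control 3, and the group means of 0.46 ± 0.12 and 0.45 ± 0.06 differed by -0.0069 (95% interval -0.42 to 0.40; -0.077 without control 1). With no dye swap, the level of a ratio also carries the probe's response to the dyes.

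**Figure D2:**
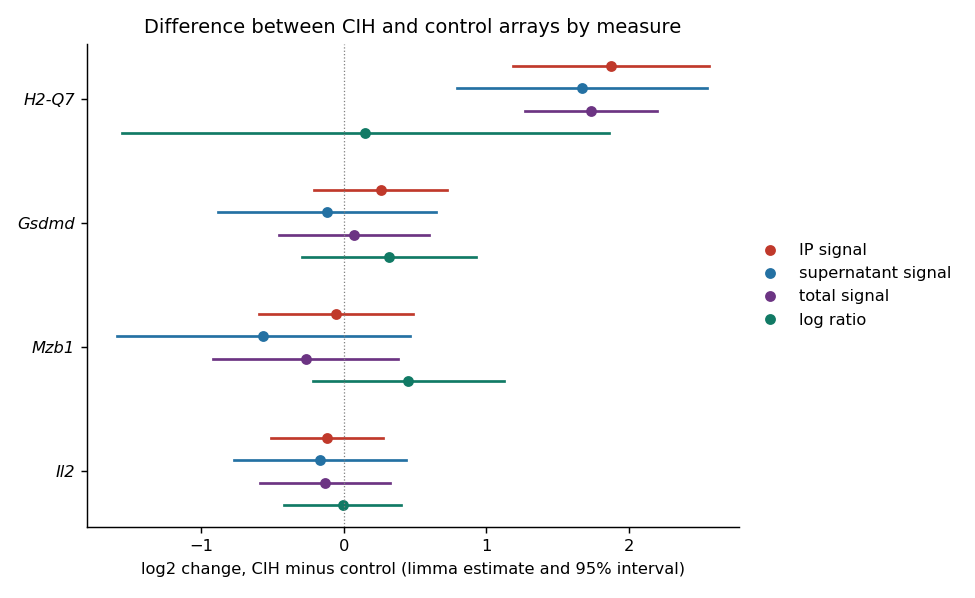
Difference between CIH and control on the log2 scale (horizontal axis) for each gene (vertical axis) and measure (colour), as limma estimate with its 95% interval. The intervals of H2-Q7 lie above 0 in the IP, supernatant and total signal and span 0 in the log ratio, and all intervals of Gsdmd, Mzb1 and Il2 span 0.

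Over the 4 genes, none passed in the log ratio, where 0% of 6924 probes passed in either direction and none of the 4 had an unadjusted p under 0.05. On that measure 1.16% of probes had an unadjusted p under 0.05 on the higher and 1.36% on the lower side, and without moderation none of the 4 passed either. In the supernatant and total signals none passed, with H2-Q7 alone under an unadjusted p of 0.05. On the higher side this held for 3.55% of all probes in the supernatant and 7.96% in the total signal. In the IP signal 1 of 4 passed, where 1.42% of 6282 probes passed as higher in CIH.

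**Figure D3:**
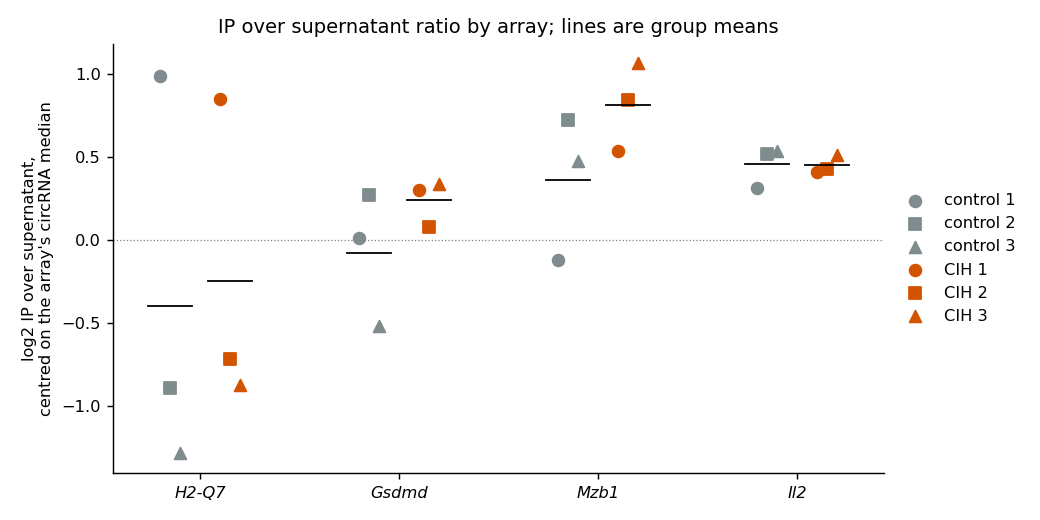
Log2 ratio of IP over supernatant, centred on each array's circRNA median (vertical axis), for the 4 genes (horizontal axis). Grey symbols are control and orange symbols CIH arrays, the shape gives the replicate number and black lines are group means of 3 arrays. For H2-Q7 the arrays control 1 (0.99) and CIH 1 (0.85) lie above 0 and the other 4 between -1.29 and -0.72, whereas Il2 stays between 0.31 and 0.53.

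Whether a signal on this array marks the named transcript was examined with 2 probes for genes of smell, Olfr166 and Olfr1307, which encode receptors of olfactory sensory neurons. Levels of different probes are not amounts of RNA that can be ranked, so each probe was set against the 15 negative probes of its own array. In the IP the Il2 intensity was 39.5, 37.9 and 16.1 times the median negative probe on control 1, 2 and 3 and 16.9, 19.3 and 21.2 times on CIH 1, 2 and 3. For Olfr1307 it was 23.9, 30.4 and 8.67 times on the controls and 12.2, 14.95 and 16.1 times on the CIH arrays. For Olfr166 it was 98.2 to 254 times. In the supernatant Il2 reached 10.97 to 32.4 times, Olfr1307 8.74 to 30.6 times and Olfr166 69.4 to 236 times. Both olfactory probes had all 60 spots well above background in both channels, as Il2 did. Of 45 negative spots, at most 1 per array in the IP and 2 in the supernatant were so marked.

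The mark "well above background" thus did not set the Il2 probe apart from the olfactory probes, and neither did its distance from the negative probes. The log2 ratio of Olfr166 was 0.14 to 0.52 over the 6 arrays, a range that holds most of that of Il2, and that of Olfr1307 was -0.10 to 0.32. The IP signal of Olfr166 had a control mean of 3.95 ± 0.17 and a CIH mean of 3.68 ± 0.10 (SD, n = 3). Its groups did not overlap, as for 8.8% of 6282 probes on the lower side, and its limma adjusted p was 0.614. What RNA the Il2 and olfactory probes read was not tested. The same limit applies to Gsdmd, Mzb1 and H2-Q7. The Gsdmd and Mzb1 IP intensities were 6.45 to 13.7 times and 4.74 to 16.5 times the median negative probe, in the range of the Olfr1307 probe or under it. H2-Q7 was 6.93 to 25.8 times the median negative probe on the control arrays and 27.8 to 53.2 times on the CIH arrays in the IP. It was above Olfr1307 on control 1 (25.8 against 23.9 times) and below it on control 2 and control 3. On each CIH array H2-Q7 was above Olfr1307, which was 12.2 to 16.05 times there. H2-Q7 was below Olfr166 on every array. In the supernatant it was 13.3, 37.8 and 16.7 times on control 1, 2 and 3 and 28.5, 67.6 and 78.0 times on CIH 1, 2 and 3, so that on this measure control 2 exceeded CIH 1 and the groups overlapped. H2-M2 is the other class I gene with a probe, and was looked at after the result for H2-Q7 was seen. Its IP level averaged 4.08 ± 0.32 over the controls and 3.85 ± 0.14 over CIH (SD, n = 3; log2 change -0.24, 95% interval -0.65 to 0.17, limma adjusted p = 0.669).

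**Figure D4:**
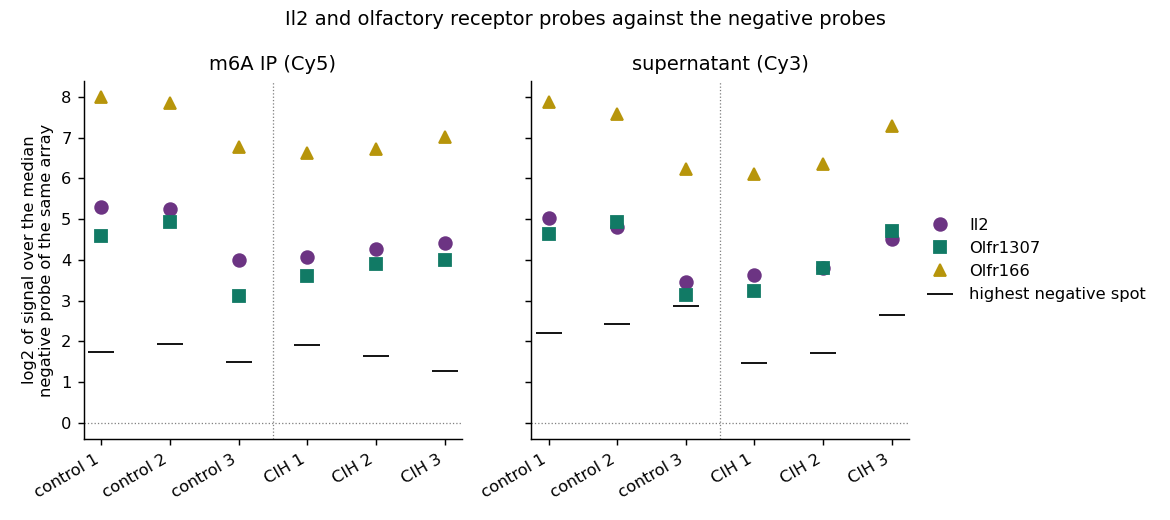
Log2 of the intensity over the median negative probe of the same array (vertical axis) on the 6 arrays (horizontal axis) for IP (left) and supernatant (right). Il2 (circles) lies near Olfr1307 (squares) and below Olfr166 (triangles) on each array, and all 3 lie above the highest negative spot (dashes).

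The mRNA probes whose array-to-array pattern was most like that of each gene were found from 12 values, the IP and supernatant levels on 6 arrays with each channel centred on its mean. Likeness is the root mean square difference on the log2 scale over 24 other named mRNA probes. For H2-Q7 the nearest were Lhfp at 0.70 and Gsta4 at 0.72, with a median of 1.13. The difference also grows with a gene's own spread over the arrays (SD in the IP 1.15 for H2-Q7 and 0.13 for Il2). It therefore cannot show whether a probe followed H2-Q7 at a smaller size, and is not comparable between genes. Gsdmd was nearest to Taf1a at 0.22, with a median of 0.38. Mzb1 was nearest to Lhx1 at 0.16 and Duox1 at 0.17, with a median of 0.41. Il2 was nearest to Anxa8 at 0.10 and Gamt at 0.11, with a median of 0.26. These values describe 6 arrays and share the arrays' scaling.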

How the data were processed

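Each deposited file is the Agilent Feature Extraction 11.0.1.1 output of 1 array, per the file headers. The authors deposited linear intensity values after background subtraction and linear and lowess dye normalization. The deposited log10 ratio of Cy5 over Cy3, per the file headers, was recomputed here as log2. Outlier spots were left out and the others averaged. A probe was well above background where over 50% of its spots were, and was tested where this held on at least 3 of 6 arrays (either channel for ratio and total), which 27 of 50 mRNA probes met.

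limma 3.58.1 in R 4.3.3 was fitted over all circRNA and mRNA probes (empirical Bayes with trend, two-sided, Benjamini-Hochberg adjusted p under 0.05), after a test on simulated data. The number of arrays limits precision. RefSeq accessions named 46 of 50 mRNA probes through a GRCm38.p6 table. The array header names another build, so no coordinates are given. Named genes were the 4 genes, the olfactory probes and, per gene, the 2 most alike mRNA probes, of which 1 is not reported here. Hspb7 came from the marker lists, and H2-M2 was added after values were seen. Members and lists were chosen with earlier results of these data known. The labels name a blood RNA kit with globin removal for heart tissue. Alternatives were normexp (offset 50, median signals, no dye normalization), median, spike-in (47 probes) and quantile scaling, 2 other filters, spot medians, kept outliers, ordinary variance, slide, a replicate block, leaving out arrays and, added after seeing the data, slide 1 alone.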

Additional observations from a re-analysis of the deposited data

How the results depend on the processing

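The rise of H2-Q7 kept its direction in all 18 alternatives in the IP, supernatant and total signals. The count of genes passing in the IP signal was 1 in 15 of 18 alternatives and 0 without moderation, and ran from 0 to 1 with single arrays left out. Among these 15, the slide block and slide 1 alone rest on CIH 1 as the single CIH array. Over all probes 89 passed in the main fit, 290 with no filter on dim probes and 2 with the replicate block. Without moderation, without CIH 1 and without CIH 2 the count over all probes was 0. In the total signal the count of 0 became 1, always H2-Q7, with normexp, median scaling, only probes read on all 6 arrays, no filter, and a replicate block (limma adjusted p = 0.0464). That count ran from 0 to 1 with single arrays left out. Over all probes 32 passed with normexp, 82 with median scaling, 108 with no filter and 135 without control 2. With only probes read on all 6 arrays 1 passed, and with a replicate block 4 did. Counts in the supernatant signal and log ratio stayed at 0. Median and quantile scaling do not apply to the log ratio.

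Small changes changed sign. In the log ratio, Il2 had 0.14 with normexp and 0.015 with outlier spots kept, and ran from -0.077 to 0.033 with single arrays left out, where H2-Q7 ran from -0.40 to 0.84. In the IP signal, Gsdmd had -0.013 with median scaling and Mzb1 0.050 with spike-in scaling and -0.28 to 0.082 with single arrays left out. In the supernatant, Gsdmd had 0.011 with normexp, 0.089 with spike-in scaling, 0.023 both with the slide block and for slide 1 alone, and -0.32 to 0.11 with single arrays left out. Il2 there had 0.039 with spike-in scaling and -0.29 to 0.026 with single arrays left out. In the total signal, Gsdmd had -0.17 with median scaling and -0.044 to 0.18 with single arrays left out, and Il2 0.0091 with spike-in scaling and -0.24 to 0.017 with single arrays left out. The cause was not tested.

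The normexp setting differs from the main one in background correction, offset, median signals and dye normalization. Their separate effects on the values below were not tested. With normexp the mean log2 intensity over the negative probes in the IP was 0.75 for Il2, 2.50 for Olfr166 and 0.56 for Olfr1307. In the main setting these means were 4.55, 7.16 and 4.02. For the supernatant the means were 0.47, 1.70 and 0.44 with normexp, in place of 4.20, 6.91 and 4.08.

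The replicate numbers did not meet the criterion for pairing, a correlation over 0.1 in every same-numbered pair, in any measure. Same-numbered deviations correlated at -0.02, 0.02 and -0.24 in the IP signal, 0.13, 0.27 and -0.01 in the supernatant, -0.06, 0.14 and -0.20 in the total signal and 0.24, 0.10 and -0.03 in the log ratio. In these measures 0, 4, 2 and 3 of 6 samples correlated best with their own number. With a replicate block the log2 change of H2-Q7 in the IP signal was 1.88 as before (limma adjusted p = 0.0364), and the count of genes was 1 there, 0 in the supernatant, 0 in the log ratio and 1 in the total signal.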
